A study of Drosophila melanogaster with 6 samples.

Results

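The genes described here encode the thick filament of Drosophila muscle and the giant elastic and M-line proteins that hold it in the sarcomere. They were chosen by name: a row of the deposited table belonged to the set if its gene symbol was one of 10 listed, namely Mhc, Mlc1, Mlc2, Prm, fln, Mf, bt, sls, Unc-89 and Strn-Mlck. Of the 10, 9 were found among the 13517 genes of the table, and fln (flightin, a myosin-binding protein of flight muscle) was not analysed here. RNA came from muscle-enriched lysates of larvae late in the third instar, each sample a pool of 7 to 10 larvae. In the tsrRNAi group (genotype Mhc-Gal4>UAS-twinstarRNAi, 3 samples) an RNAi transgene was expressed against twinstar (tsr), which encodes the fly cofilin, a protein that severs actin filaments. In the mCherryRNAi group (genotype Mhc-Gal4>UAS-mCherryRNAi, 3 samples) the transgene was directed against mCherry, a red fluorescent protein that flies do not make. Both groups thus carried Gal4 under the promoter of Mhc, itself one of the genes described, so the knockdown acted where that promoter is active, while the lysates also held other tissues. The tissue label reads adult body wall musculature, but the submitters' growth and design notes speak of larvae, which is followed here.

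In striated muscle, myosin molecules pack into bipolar thick filaments whose heads pull on actin. Each myosin is made of heavy chains with an essential and a regulatory light chain, and in insects the filament is built around a core that includes paramyosin and myofilin. Titin-like proteins, strings of immunoglobulin and fibronectin domains, tie thick filaments to the Z-disc and act as springs, and obscurin organises the M-line in the middle of the filament. In the fly all muscle myosin heavy chains come from the single gene Mhc by alternative splicing, and several of the giant genes also make short and long isoforms. The values here are per gene, so isoforms were not separated.

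All values are the authors' scaled counts, read counts per gene made comparable by 1 factor per sample. Summed over genes they came to 36037741 to 43410645 in tsrRNAi samples and to 37822961 to 42187178 in mCherryRNAi samples. On the log2 scale over 11720 genes, Pearson r was 0.959 to 0.963 between tsrRNAi samples and 0.951 between mCherryRNAi replicates 1 and 3. For mCherryRNAi replicate 2 it was 0.812 to 0.85 with tsrRNAi samples, and 0.759 and 0.813 with replicates 1 and 3 of its own group, so this library stood apart. It also had the largest share of reads aligned to several places, 8.6%, against 2.27% to 3.16% in tsrRNAi samples and 4.8% and 4.91% in the other mCherryRNAi samples. The targeted gene had 6966, 7070 and 5035 scaled counts of tsr in tsrRNAi samples, against 39133, 29266 and 25816 in mCherryRNAi samples, a log2 fold change of -2.30 (SE 0.21, limma adjusted p = 0.00525).

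The 9 genes lie on 5 chromosome arms (build dm6, coordinates of the Ensembl annotation). Mhc spans 16766566 to 16788766 of 2L on the plus strand, with 21 annotated transcripts and 9058 bases of merged exon. The light chain genes are small. Mlc1 lies at 27657078 to 27660177 and Mlc2 at 30171438 to 30174551, both on the minus strand of 3R, with 1414 and 2286 exonic bases. Prm lies at 8732858 to 8745310 of 3L, on the minus strand. It encodes both paramyosin and the shorter miniparamyosin, and its longest and shortest annotated coding sequences have 2637 and 921 bases. Mf lies at 15170625 to 15181510 of 3R, on the minus strand, with 17 transcripts. It overlaps Gyc88E on the other strand, although none of its exonic bases are exonic in both. The giant genes are of another size. bt spans 724400 to 776474 of chromosome 4 with 28019 exonic bases, and sls spans 2039681 to 2115611 of 3L with 58996, of which 1089 are shared with an antisense RNA gene, asRNA:CR42860. Unc-89 lies at 23995543 to 24014254 and Strn-Mlck at 15946933 to 15989498, both on the minus strand of 2R, with 13261 and 32768 exonic bases. Strn-Mlck shares 334 exonic bases with Cyp4aa1 and 163 with lncRNA:CR45021, both on the opposite strand. Whether the counting used strand is not given in the sources used here, so reads in these short stretches of sls and Strn-Mlck are uncertain.

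Together the 9 genes made up a substantial part of the RNA sequenced. Their summed share of the scaled counts in genes was 8.43% to 9.7% in tsrRNAi samples and 5.02% to 6.47% in mCherryRNAi samples. The means were 9.19% ± 0.67 and 5.54% ± 0.81 (SD, n = 3 each), and the groups did not overlap (two-sided exact permutation test, p = 0.1; a design of 3 against 3 cannot go lower). In a share from bulk lysates, more cells of a type, more RNA per cell and less RNA of other genes cannot be told apart. Mhc alone held 3.39% ± 0.30 of the scaled counts in tsrRNAi samples and 1.70% ± 0.42 in mCherryRNAi samples (SD, n = 3 each).

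All 9 genes had a higher mean in tsrRNAi than in mCherryRNAi samples, by 0.48 to 1.0 on the log2 scale, but none passed the test singly. The test was limma on log2(scaled count + 1) over the 11720 genes with a mean of at least 10, a filter that all 9 passed, with p-values adjusted by the Benjamini-Hochberg method and called under 0.05. The median log2 fold change of the 9 was 0.63, against 0.06 over all genes tested, and 53.9% of those genes lay above 0. The number of the 9 called was 0, where 4.58% of all genes were called higher and 7.02% lower, 11.6% in all. Without mCherryRNAi replicate 2, the library that stood apart, limma also called 0 of the 9, whose median was then 0.64, but 19.5% of all genes were called higher. At an unadjusted p under 0.05, 4 of the 9 were higher (Mhc, Prm, Unc-89 and Strn-Mlck), and 14.0% of all genes were. In 7 of the 9 every tsrRNAi sample lay above every mCherryRNAi sample, which was so in 16.8% of all genes. The count tests were run on 5 samples, without tsrRNAi replicate 1. There edgeR called 0 of the 9 and 0.0770% of all genes higher. DESeq2 called 3 of the 9 higher (Mhc, Prm and Strn-Mlck, with adjusted p from 0.0227 to 0.0474) and 6.61% of all genes.

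**Figure D1:**
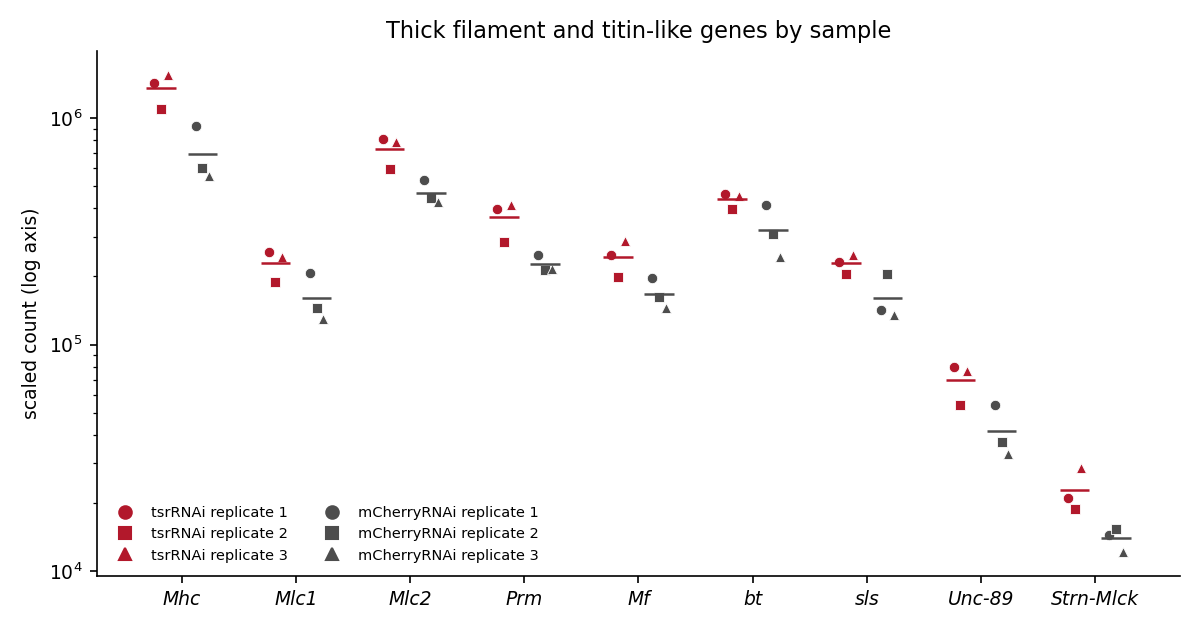
Scaled counts (log axis) of the 9 genes in each sample, tsrRNAi in red left of mCherryRNAi in grey, with marker shape for the replicate and a line at the mean of 3 samples. Only Mlc1 and bt have a tsrRNAi sample (replicate 2) below an mCherryRNAi sample (replicate 1).

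Among the myosin subunits, the heavy chain gene Mhc differed most. Mhc (FBgn0264695) had 1435566, 1095026 and 1557535 scaled counts in tsrRNAi samples, against 923059, 599476 and 557851 in mCherryRNAi samples. All 3 tsrRNAi samples were above the highest mCherryRNAi sample, replicate 1, which stood well above the other controls. The means were 1362709 ± 239708 and 693462 ± 199923 (SD, n = 3 each). The log2 fold change was 1.0 (SE 0.39, 95% interval 0.05 to 1.94, limma adjusted p = 0.155), so that 24.1% of all genes tested had a higher one. The essential light chain gene Mlc1 (FBgn0002772) had 256576, 188498 and 242788 scaled counts in tsrRNAi samples, against 207164, 144337 and 129123 in mCherryRNAi samples. Its groups overlapped, since tsrRNAi replicate 2 was below mCherryRNAi replicate 1, and the log2 fold change was 0.53 (SE 0.26, 95% interval -0.11 to 1.18, limma adjusted p = 0.248). The regulatory light chain gene Mlc2 (FBgn0002773), whose protein is the phosphorylated subunit, had 806850, 597789 and 785995 scaled counts in tsrRNAi samples, against 532822, 444174 and 428345 in mCherryRNAi samples. The Mlc2 groups did not overlap, and tsrRNAi replicate 2 was the nearest to the controls. Its log2 fold change was 0.63 (SE 0.29, 95% interval -0.08 to 1.35, limma adjusted p = 0.223). The scaled counts of Mlc2 per scaled count of Mlc1 were 3.18 ± 0.05 in tsrRNAi samples and 2.99 ± 0.38 in mCherryRNAi samples (SD, n = 3 each; two-sided exact permutation test, p = 0.6).

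The 2 core proteins of the filament followed the same order of groups. The paramyosin gene Prm (FBgn0003149) had 398517, 282503 and 413193 scaled counts in tsrRNAi samples, against 247684, 213867 and 215888 in mCherryRNAi samples. Its groups did not overlap, the controls lay close together, and tsrRNAi replicate 2 was closer to them than to the other knockdown samples. The log2 fold change was 0.67 (SE 0.25, 95% interval 0.07 to 1.28, limma adjusted p = 0.138). Scaling all samples to equal totals brought Prm past the threshold (0.70, limma adjusted p = 0.0491), where 5.30% of all genes were called higher. The myofilin gene Mf (FBgn0038294) had 248322, 198792 and 287234 scaled counts in tsrRNAi samples, against 197122, 162136 and 144418 in mCherryRNAi samples. The gap between the Mf groups was narrow, from tsrRNAi replicate 2 to mCherryRNAi replicate 1. Its log2 fold change was 0.54 (SE 0.24, 95% interval -0.04 to 1.12, limma adjusted p = 0.203).

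The titin-like genes came next. Projectin, the product of bt, runs along the thick filament and into the elastic part of the sarcomere, and carries a kinase domain. bt (FBgn0005666) had 461626, 398486 and 453314 scaled counts in tsrRNAi samples, against 413113, 307038 and 243146 in mCherryRNAi samples. The bt groups overlapped, and the log2 fold change was the smallest of the 9, 0.48 (SE 0.29, 95% interval -0.22 to 1.18, limma adjusted p = 0.346). Sallimus, which includes the kettin isoforms, anchors in the Z-disc. sls (FBgn0086906) had 231116, 204647 and 249866 scaled counts in tsrRNAi samples, against 141988, 204601 and 135115 in mCherryRNAi samples. The sls groups were apart by a hair, because mCherryRNAi replicate 2 reached the level of tsrRNAi replicate 2. Its log2 fold change was 0.53 (SE 0.24, 95% interval -0.05 to 1.11, limma adjusted p = 0.21), and without mCherryRNAi replicate 2 it was 0.72. Of the 9 genes, sls followed the mean of the others least closely over the 6 samples (Pearson r = 0.738, where the other 8 had 0.91 to 0.985, a description with no test).

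The M-line and stretchin genes had the smallest p-values of the set. Unc-89, the fly obscurin gene, encodes a giant M-line protein with kinase domains. Unc-89 (FBgn0053519) had 79743, 53872 and 76654 scaled counts in tsrRNAi samples, against 53835, 37285 and 32968 in mCherryRNAi samples. The lowest tsrRNAi sample and the highest mCherryRNAi sample were almost level, although the groups did not overlap. The log2 fold change was 0.77 (SE 0.25, 95% interval 0.16 to 1.39, limma adjusted p = 0.104). Strn-Mlck, the stretchin gene, encodes large immunoglobulin-domain proteins of the thick filament region as well as isoforms with a myosin light chain kinase domain. Strn-Mlck (FBgn0265045) had 20914, 18756 and 28562 scaled counts in tsrRNAi samples, against 14399, 15308 and 12152 in mCherryRNAi samples. Here tsrRNAi replicate 3 stood above its group, and the groups did not overlap. Its log2 fold change was 0.69 (SE 0.19, 95% interval 0.22 to 1.15, limma adjusted p = 0.0694), the nearest of the 9 to the threshold. Strn-Mlck passed the threshold after upper-quartile rescaling (0.78, limma adjusted p = 0.0386), where 5.68% of all genes were called higher, and with equal totals (0.71, limma adjusted p = 0.0278), where 5.30% were.

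**Figure D2:**
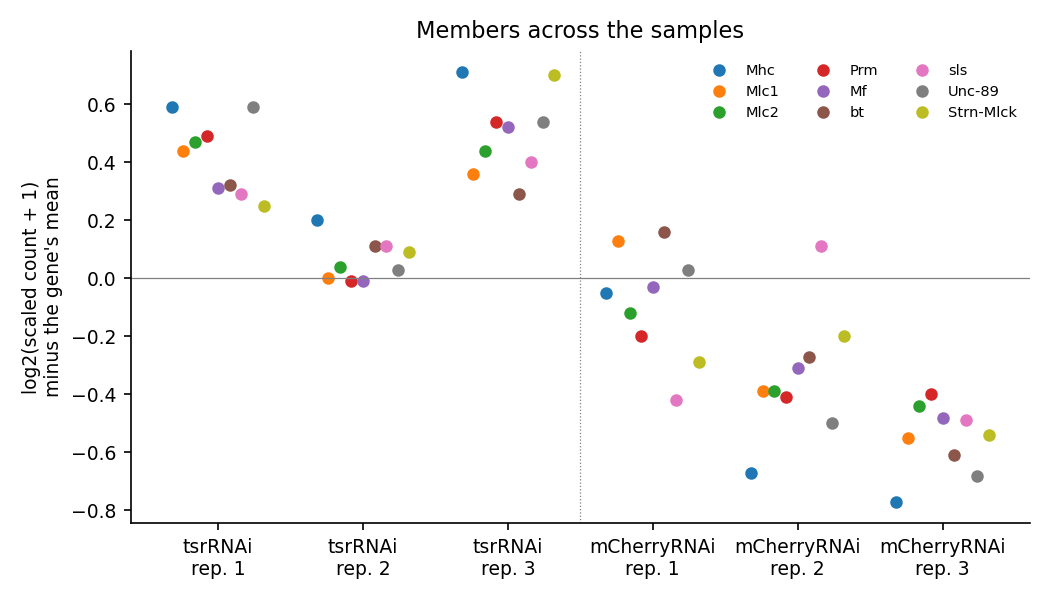
Each gene's log2(scaled count + 1) minus its mean over the 6 samples, by sample, with 1 colour per gene. The mean over the 9 genes is 0.42, 0.06 and 0.50 in tsrRNAi replicates 1 to 3 and -0.09, -0.34 and -0.55 in mCherryRNAi replicates 1 to 3, and sls in mCherryRNAi replicate 2 lies apart from the other genes of that sample.

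The samples within a group were thus not alike in these genes. Averaged over the 9, the centred log2 level was 0.06 in tsrRNAi replicate 2 and 0.42 and 0.50 in the other tsrRNAi samples, against -0.09 in mCherryRNAi replicate 1 and -0.34 and -0.55 in the other mCherryRNAi samples. The lowest tsrRNAi sample and the highest mCherryRNAi sample thus lay next to each other. The within-group SD on the log2 scale ranged from 0.116 (bt) to 0.315 (Strn-Mlck) in tsrRNAi samples and from 0.119 (Prm) to 0.393 (Mhc) in mCherryRNAi samples.

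Per kilobase of merged exon, the 9 genes covered a wide span of levels, with the light chains at the top and stretchin at the bottom. Mlc2 had the highest level, 319400 ± 50370 scaled counts per kb in tsrRNAi samples and 204900 ± 24630 in mCherryRNAi samples (SD, n = 3 each). Mlc1 and Mhc came next, at 162200 ± 25450 and 150400 ± 26460 per kb in tsrRNAi samples, and 113300 ± 29260 and 76560 ± 22070 in mCherryRNAi samples. The ranges of Mlc1 and Mhc overlapped in both groups, and Mlc1 was the higher in 2 of 3 tsrRNAi and in 3 of 3 mCherryRNAi samples. Prm and Mf followed at 68100 ± 13370 and 46220 ± 8370 per kb in tsrRNAi samples, against 42160 ± 3541 and 31700 ± 5064 in mCherryRNAi samples, and their ranges overlapped only in the knockdown. The giant genes were lower. bt had 15630 ± 1224 per kb in tsrRNAi samples and 11460 ± 3064 in mCherryRNAi samples. Unc-89 had 5285 ± 1065 and sls 3874 ± 385 per kb in tsrRNAi samples, against 3119 ± 831 and 2722 ± 649 in mCherryRNAi samples, and this pair overlapped in both groups. Strn-Mlck was last, at 694 ± 157 per kb in tsrRNAi samples and 426 ± 50 in mCherryRNAi samples. The order of the 9 means was the same in both groups. Exon length was merged over all annotated transcripts, so a gene that uses few of its exons in larvae is understated. Divided by the longest coding length instead, Mhc and Mf ranked 3 and 4 in tsrRNAi samples, and 4 and 3 in mCherryRNAi samples, with Prm at 5 in both.

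**Figure D3:**
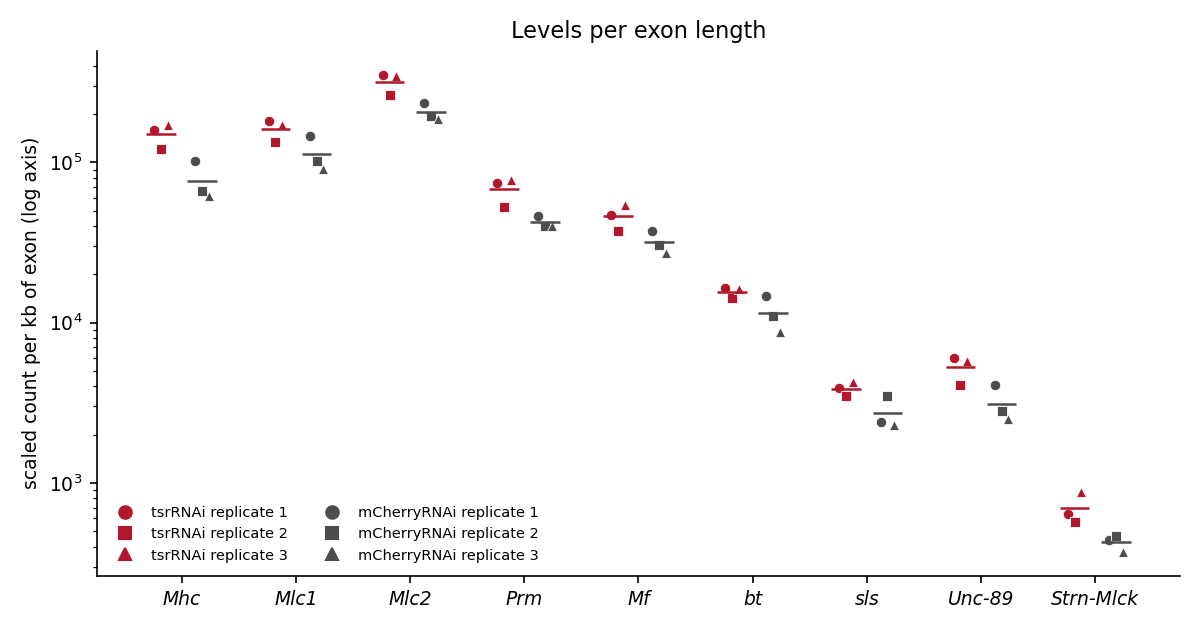
Scaled counts per kilobase of merged exon (log axis) of the 9 genes in each sample, tsrRNAi in red left of mCherryRNAi in grey, with a line at the mean of 3 samples. Mlc2 averages 319400 per kb in tsrRNAi and 204900 in mCherryRNAi samples, and Strn-Mlck 694 and 426.

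To compare the members with each other free of scaling, each was set against Mhc in the same sample. All 8 genes had a lower mean ratio to Mhc in tsrRNAi samples, as 75.9% of all genes had, since Mhc had the largest fold change of the 9. The largest differences were in bt, sls, Mlc1 and Mf. The scaled count of bt was 32.2%, 36.4% and 29.1% of that of Mhc in tsrRNAi samples, against 44.8%, 51.2% and 43.6% in mCherryRNAi samples. This ratio was separate between the groups and fell by 0.52 on the log2 scale (SE 0.17, limma adjusted p = 0.0462). It was the only one of the 8 to pass, while 40.5% of all genes tested were called lower relative to Mhc, so the count of 1 in 8 is below the background. Mlc1 had 17.9%, 17.2% and 15.6% of the scaled count of Mhc in tsrRNAi samples, against 22.4%, 24.1% and 23.1% in mCherryRNAi samples, a log2 difference of -0.46 (SE 0.16, limma adjusted p = 0.0505). Here both groups were tight and did not overlap. Mf had a log2 difference of -0.46 as well (limma adjusted p = 0.0635), with 18.0% ± 0.6 in tsrRNAi and 24.8% ± 3.0 in mCherryRNAi samples (SD, n = 3 each). Mlc2, Prm, sls, Unc-89 and Strn-Mlck had log2 differences between -0.47 and -0.22, none past the threshold (limma adjusted p between 0.139 and 0.324). Of these, sls varied most among controls, at 15.4%, 34.1% and 24.2% of Mhc. The exact permutation test gave p = 0.1 for the 5 ratios without overlap (0.16 adjusted over the 8 ratios) and 0.2 to 0.4 for Prm, sls and Strn-Mlck. Of all genes tested, 52.2% had a ratio to Mhc that was lower in tsrRNAi samples without overlap, so 5 of 8 is near the background.

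Which of the 8 ratios were called rested on single samples, whereas no log2 difference changed sign when a sample was left out. That of bt stayed between -0.60 and -0.44. Without mCherryRNAi replicate 1, 7 of the 8 were called lower, where 54.5% of all genes were. Leaving out any 1 of the other 5 samples gave 0 calls, with limma adjusted p for bt between 0.0608 and 0.162. In those fits 6.12%, 37.0% and 7.53% of all genes were called lower relative to Mhc without tsrRNAi replicates 1, 2 and 3, and 32.3% and 7.93% without mCherryRNAi replicates 2 and 3. Set against the mean of the other 8 members in place of Mhc, Mhc itself had a log2 difference of 0.39 (95% interval -0.02 to 0.79, limma adjusted p = 0.128), and the other 8 lay between -0.19 and 0.14, with limma adjusted p between 0.379 and 0.93. The call of bt was lost in that comparison (-0.19, limma adjusted p = 0.379).

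**Figure D4:**
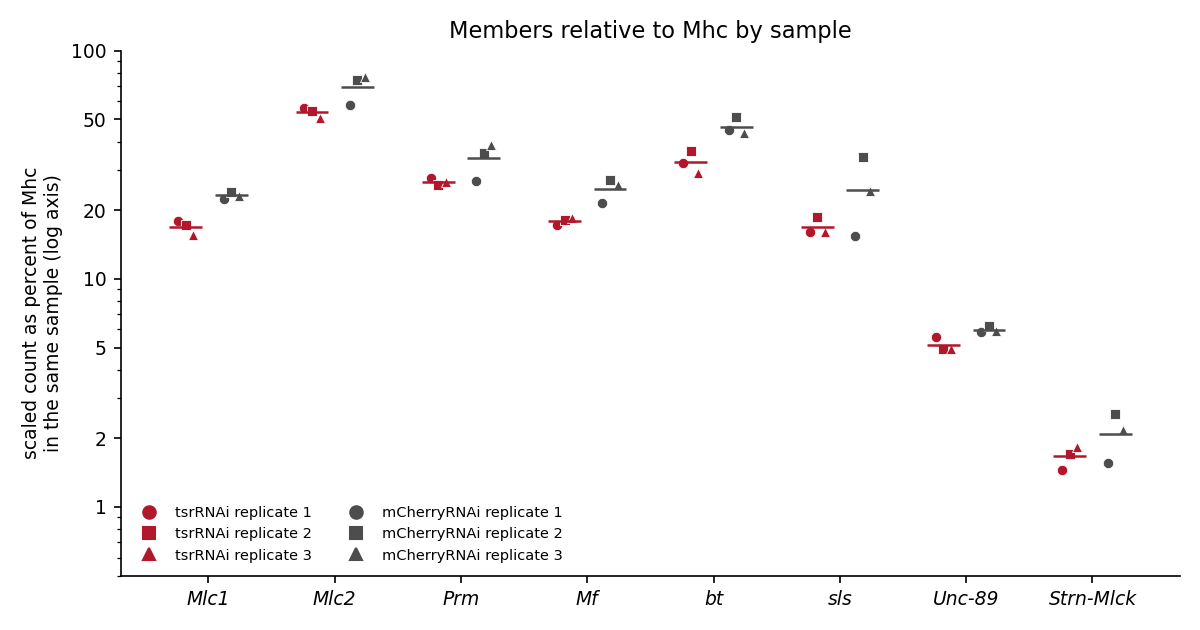
Scaled count of 8 genes as a percentage of the scaled count of Mhc in the same sample (log axis), tsrRNAi in red left of mCherryRNAi in grey, with a line at the mean of 3 samples. bt lies at 29.1% to 36.4% in tsrRNAi and 43.6% to 51.2% in mCherryRNAi samples, and mCherryRNAi replicate 1 is the lowest control for Mlc1, Mlc2, Prm, Mf, sls, Unc-89 and Strn-Mlck.

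The thick filament was then set beside a list of thin filament and Z-disc genes, its partners in the contractile machinery. Of its 19 genes 18 were tested. Their median log2 fold change was 0.70, beside 0.63 for the thick filament set and 0.06 over all genes tested. By limma 2 of the 18 rose and 3 fell, where 4.58% of all genes were called higher and 7.02% lower. Those that rose were the actin gene Act87E (2.67, limma adjusted p = 0.0039; actin genes share sequence, so the split of reads among them is uncertain) and the troponin C gene TpnC25D (0.86, limma adjusted p = 0.0262). The capping protein genes cpb and cpa, whose products close the barbed end of actin filaments, fell by 0.62 and 0.53 (limma adjusted p = 0.0119 and 0.0267), and the Z-disc gene Zasp66 fell by 0.81 (limma adjusted p = 0.0492). Rescaled to the median of the list, the members' median was 0.18 and 0 of the 9 were called, where 1.54% of all genes were called higher; the median of all genes moved to -0.39.

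Non-muscle myosin II, the myosin of the cell cortex in most cell types, was described by its own list. Of its 6 genes 3 fell and 0 rose, with a list median of -0.60. Of all genes tested, 7.02% were called lower and 4.58% higher. The essential light chain gene Mlc-c fell to 4538 ± 430 scaled counts in tsrRNAi samples, against 7976 ± 904 in mCherryRNAi samples (SD, n = 3 each; log2 fold change -0.81, limma adjusted p = 0.0176). The regulatory light chain gene sqh fell to 3673 ± 306 in tsrRNAi samples, against 6179 ± 1177 in mCherryRNAi samples (log2 fold change -0.74, limma adjusted p = 0.0389). The heavy chain gene zip, at 16040 ± 1351 in tsrRNAi and 26760 ± 7242 in mCherryRNAi samples, had a log2 fold change of -0.71 that did not pass (limma adjusted p = 0.0758). The gene flw, which encodes a catalytic subunit of myosin phosphatase, had a positive log2 fold change of 0.45 that did not pass either (limma adjusted p = 0.0596), and its groups did not overlap.

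**Figure D5:**
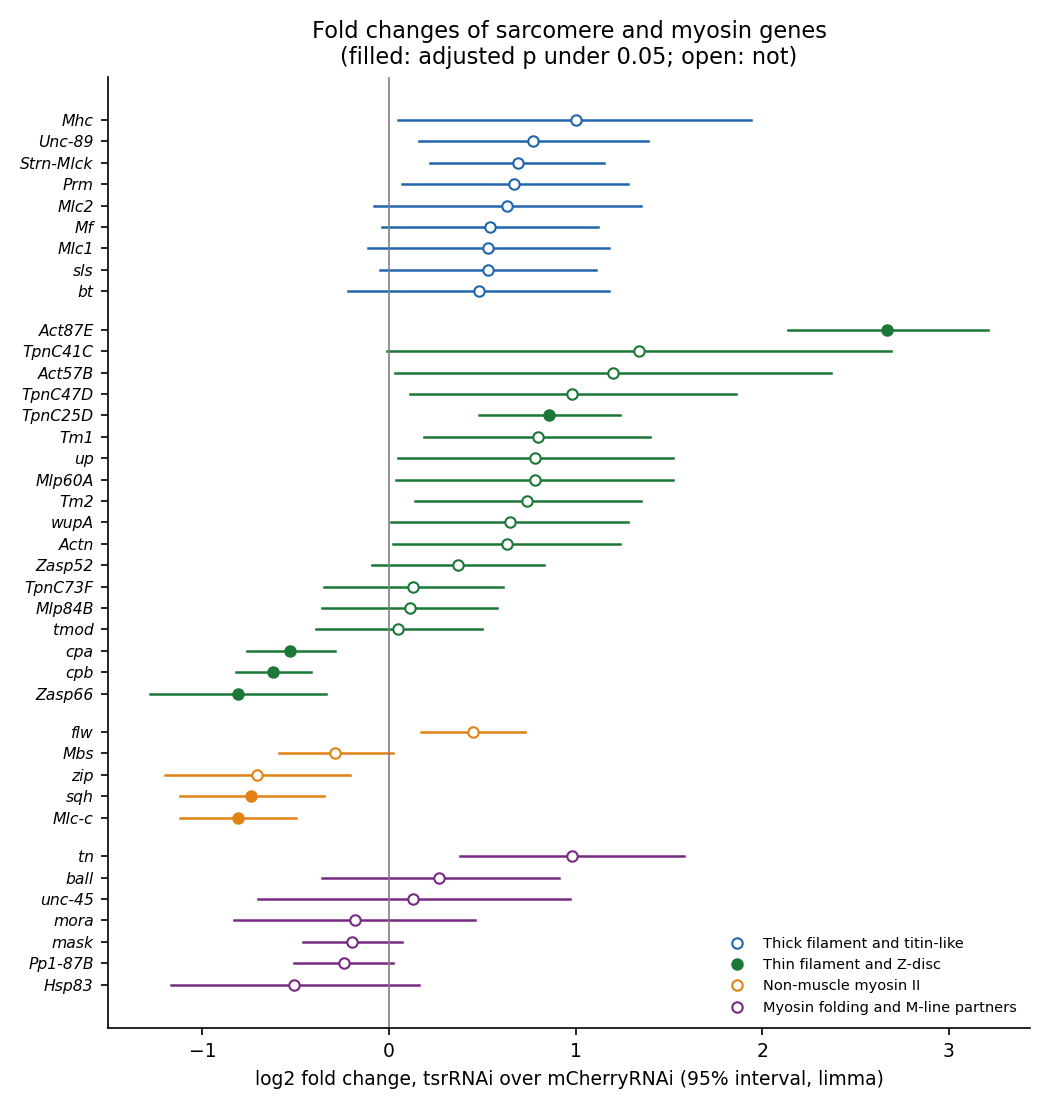
Log2 fold change of tsrRNAi over mCherryRNAi with its 95% interval (limma) for the 9 thick filament and titin-like genes and for the tested genes of 3 lists, 1 of the non-muscle myosin list left out. Filled points have an adjusted p under 0.05: none of the 9, Act87E, TpnC25D, cpa, cpb and Zasp66 of the thin filament and Z-disc list, Mlc-c and sqh of the non-muscle myosin list, and none of the myosin folding and M-line list.

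Genes for myosin folding and for partners at the M-line had a median of -0.18. By limma 0 of 7 were called, beside 11.6% of all genes. At an unadjusted p under 0.05, 1 of the 7, tn, was higher, as were 14.0% of all genes. The myosin chaperone gene unc-45 had 1946 ± 210 scaled counts in tsrRNAi samples and 1915 ± 994 in mCherryRNAi samples (log2 fold change 0.13, 95% interval -0.70 to 0.97). Hsp83, the Hsp90 chaperone that works with it, had a log2 fold change of -0.51 (limma adjusted p = 0.295). The largest value was that of tn (thin), a TRIM protein gene of muscle, at 0.98 (limma adjusted p = 0.0558).

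The lysates were checked for what else they held. Of 4 genes of muscle identity and excitation, 0 were called by limma, beside 11.6% of all genes. At an unadjusted p under 0.05, 1 of the 4, RyR, was higher, as were 14.0% of all genes. The sum of the 4 was 239755 to 316404 scaled counts in tsrRNAi samples and 170744 to 278029 in mCherryRNAi samples, with overlap. Most of that sum was SERCA, at 203887 to 273336 in tsrRNAi and 157141 to 247926 in mCherryRNAi samples. All 4 log2 fold changes were above 0, as were 53.9% of all genes. Only RyR had every tsrRNAi sample above every mCherryRNAi sample, which was so in 16.8% of all genes. Mef2, the main transcription factor of muscle differentiation, had 6605 to 8849 in tsrRNAi samples and 5479 to 7142 in mCherryRNAi samples (log2 fold change 0.35, limma adjusted p = 0.22). Adult flight muscle actin, Act88F, had only 23.0 to 43.0 scaled counts in tsrRNAi samples and 5.42 to 13.5 in mCherryRNAi samples. The larval actin gene Act57B had 2149963 to 3243686 in tsrRNAi samples and 1010391 to 1653114 in mCherryRNAi samples.

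Among markers of other tissues, the sums for epidermis and cuticle and for neurons were separate between the groups, and the other sums were not. Of 8 epidermis and cuticle genes, 7 were tested and 3 fell (Lcp1, Lcp2 and Cpr65Aw), where 7.02% of all genes were called lower. The summed level of the 8 was 1281234 to 2120744 scaled counts in tsrRNAi samples and 4079254 to 4953883 in mCherryRNAi samples. Nearly all of it came from the cuticle protein genes Lcp1, Lcp2, Lcp3 and Lcp4. The other tested genes, sha (-1.95), Lcp4 (-1.14), Lcp3 (-0.38) and grh (-0.29), did not pass (limma adjusted p from 0.0548 to 0.535). Cpr47Ea, the gene not tested, was at 0 in all tsrRNAi samples and averaged 0.98 in mCherryRNAi samples. Of 6 neuron genes 2 rose (para and Syt1), where 4.58% of all genes were called higher. The sum of the 6 was 12466 to 14282 in tsrRNAi samples and 3428 to 5622 in mCherryRNAi samples. The sums of 6 fat body, 5 blood cell, 4 trachea, 6 gut and 6 salivary gland genes overlapped between the groups. Fat body sums were 1040485 to 1292547 in tsrRNAi samples and 598570 to 1324003 in mCherryRNAi samples, the highest being mCherryRNAi replicate 2. Salivary gland sums varied by library, from 22.9 to 10468 in tsrRNAi samples (highest in replicate 2) and from 31.6 to 103419 in mCherryRNAi samples (high in replicates 1 and 2). Within these lists the genes that passed limma's threshold were Lsp1gamma (1.22) and Jon74E (3.19), which rose, and Fbp1 (-5.55), He (-0.79), eater (-0.92) and serp (-0.77), which fell. The part of these tissues in the levels of the thick filament genes was not tested.

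The genes whose levels ran most like the mean profile of the 9 over the 6 samples were looked for among the 4068 other genes with a mean of at least 1000. The 5 nearest were NP15.6 (Pearson r = 0.993), ND-B12 (0.992), CD98hc, CG9331 and CG34141 (0.991 each), given as a description with no test over samples that also share their scaling. NP15.6 and ND-B12 encode subunits of respiratory complex I, and had log2 fold changes of 0.38 and 0.43. Of the 5, CG9331 passed the threshold (0.71, limma adjusted p = 0.0366).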

How the data were processed

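The authors deposited a signal per gene and sample: scaled counts, one table for 6 samples of RNA sequenced as PE50. Per the submitters' processing notes, STAR 2.5.0a, Picard and HTSeq 0.5.3 were used with build dm6. Rows outside genes (4, holding 19.4% to 27.0% of the signal) were left out. In all 6 columns every value was a whole multiple of 1 step per column, within 0.01 of a read. In 5 of them the step was accepted, which gave 37138289 to 41900871 reads per sample. The step of tsrRNAi replicate 1 (0.9975) was too near 1 to be accepted, so its depth is not given and count tests used the other 5 samples (edgeR 4.0.16 and DESeq2 1.42.0). The main test was limma 3.58.1 (R 4.3.3, eBayes with a trend) on log2(scaled count + 1), with no covariate, and was checked on simulated counts. Fold changes are on that scale. For ratios, the log2 value of Mhc was subtracted from every gene of a sample first. The labels call the replicates biological; whether molecular identifiers, strand or which annotation was used in counting is not given in the sources used here.

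The members and lists were chosen with earlier results of these data known. Named were tsr, all members, Mef2, Act88F, unc-45, zip and sqh, up to 3 called genes per list with the smallest p-values, and the 5 genes nearest in profile; other genes were named after their values were seen. CHORD was matched as mora; TpnC4 was not analysed here, and 1 gene of the non-muscle myosin list is counted but not reported here. Alternatives were other pseudocounts (0.5 and 5), filters (none, or a mean of at least 50), scalings, a replicate block, leaving out each sample, and the count tests. Same-numbered samples deviated from their group means with correlations of -0.46, -0.032 and 0.192, so numbers were not treated as pairs.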

Additional observations from a re-analysis of the deposited data

How the results depend on the processing

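The members' median log2 fold change of 0.63 stayed between 0.60 and 0.73 under 8 of the 9 alternatives on 6 samples and was 0.18 after rescaling to the thin filament and Z-disc list, and from 0.51 to 0.77 when samples were left out. The number of members called higher, 0, became 1 with upper-quartile rescaling and 2 with equal totals. In those fits 5.68% and 5.30% of all genes were called higher. The number stayed 0 in limma with each sample left out. It was 3 by DESeq2 on 5 samples, where 6.61% of all genes were called higher. Of the member fold changes, 78 kept their side of the threshold and 3 passed it on 6 samples. In fits with a sample left out, 78 kept it and 3 passed it, all 3 by DESeq2. All member fold changes stayed above 0. tsr ran from -2.75 to -2.21 on 6 samples; in fits without 1 sample it ran from -2.43 to -2.13, and edgeR with TMM gave -2.25 (adjusted p = 0.0776) and with DESeq2 size factors -2.38 (0.0718). All genes called, 537 higher and 823 lower, became 665 and 628 with upper-quartile rescaling and 181 and 980 after rescaling to the thin filament list, which moved the median of all genes to 0.15 and -0.39. With the replicate block they were 24 higher and 88 lower, and it changed no call among the members. With limma on 5 samples they ran from 41 (without tsrRNAi replicate 1) to 2222 higher (without mCherryRNAi replicate 2) and from 144 to 887 lower. The count tests without tsrRNAi replicate 1 gave 9 and 24 (edgeR, TMM), 7 and 28 (edgeR, DESeq2 size factors) and 757 and 1023 (DESeq2). The 1 ratio to Mhc called became 2 with a pseudocount of 0.5 (Mlc1, adjusted p = 0.0499). There 40.5% of all genes were called lower relative to Mhc. The number of ratios called was 0 to 7 without 1 sample, beside the shares of all genes given above. With the mean of the other members as the denominator, Prm (0.03), Unc-89 (0.14) and Strn-Mlck (0.04) reversed; the cause was not tested for any of these. The members had at least 12152 scaled counts in each sample.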
